A study of Homo sapiens with 12 samples.

Results

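Aldehyde dehydrogenases (ALDH) oxidise aldehydes to carboxylic acids with NAD(P)+ as the electron acceptor. Their substrates include retinal, aldehydes made during lipid peroxidation, acetaldehyde, and intermediates of amino acid and polyamine breakdown, and the enzymes work in the cytosol, the mitochondria or the membranes of the endoplasmic reticulum. ALDH activity is widely used to mark stem-like cells in lung tumors, and several ALDH genes are known to respond to NRF2, the transcription factor that KEAP1 holds in check.

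The 10 ALDH genes followed here were ALDH1A1, ALDH1A3, ALDH1B1, ALDH2, ALDH3A1, ALDH3A2, ALDH3B1, ALDH6A1, ALDH7A1 and ALDH9A1. They were taken by symbol from the 57815 genes of each file, out of 19 human ALDH genes. No measured value entered their choice by rule, but the set was proposed with earlier results of these data known. The data were 12 RNA-seq libraries from 3 established human non-small cell lung cancer lines. The labels give lung adenocarcinoma for A549 and H2023, large cell carcinoma for H460, and a positive KEAP1 mutation status for all 3 lines, which the control groups therefore shared. Cells were transfected with control siRNA or NRF2 siRNA and collected after 48 h, with 2 libraries in each of the 6 groups. In every NRF2 siRNA group 1 library was made with siRNA '#28' and the other with siRNA '#30', and per the study's methods the control libraries were biological duplicates and the siRNAs were treated as duplicates of the knockdown. The spread within an NRF2 siRNA group thus includes any difference between the siRNA molecules. A549 RNA was depleted of rRNA and H2023 and H460 RNA was selected for polyA, and A549 was grown in high glucose and the other lines in low glucose medium, so cell line, medium and library protocol cannot be told apart where A549 is set against the others.

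Values are FPKM, fragment counts scaled to transcript length and library size, so levels can be compared between genes. Between 12732 and 13909 genes reached 1 FPKM in a library. Of the FPKM sum, 35.2% to 44.3% lay in the top 10 genes of each A549 library and 10.4% to 24.0% in those of H2023 and H460. Mitochondrially encoded transcripts took 0.892% to 1.56% of that sum in A549 and 8.56% to 26.0% in the other lines. NFE2L2, which encodes NRF2, was lower in each line after NRF2 siRNA, with 30.9 to 38.2 FPKM in A549 controls against 5.31 to 7.84, 118 to 120.0 FPKM in H2023 controls against 6.80 to 7.74, and 99.5 to 144 FPKM in H460 controls against 6.54 to 12.2. Keratins 7, 8, 18 and 19 were at 1 FPKM or above in all 12 libraries, whereas the lung lineage markers NKX2-1, SFTPB and SFTPC stayed below 1 FPKM in all of them, NAPSA was at most 1.25 FPKM and EPCAM and CDH1 were at most 1.19 FPKM in H460. The summed FPKM of the 10 epithelial and lung markers was 6993 to 10221 in A549 controls against 8730 to 10043 after NRF2 siRNA, 2811 to 3387 against 6013 to 6336 in H2023, and 1154 to 1346 against 1763 to 2633 in H460, and its part in the results was not tested. The 4 mesenchymal markers summed to 334 to 370 FPKM in A549 controls against 274 to 410 after NRF2 siRNA, 351 to 496 against 211 to 701 in H2023, and 1097 to 1201 against 763 to 1460 in H460, almost all of it VIM, and their part in the results was not tested either. COL1A2 stayed below 1 FPKM throughout, whereas in H460 COL1A1 was at 1.81 and 2.06 FPKM in controls against 5.94 and 5.81, and PDGFRB was at 0.63 and 1.2 FPKM against 1.4 and 4.0. Of the 4 blood markers CD68 was at 14.0 to 57.7 FPKM, whereas PTPRC and CD3E and the endothelial markers CDH5 and VWF were below 1 FPKM throughout.

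Promoter sequence was looked at for the members. RefSeq (GRCh38.p14) gave 10 promoter entries for 8 of the 10 members, and ALDH2 and ALDH3A1 had no entry. In the 250 bases before each start, the core of the antioxidant response element, the sequence that NRF2 binds with a small MAF protein, was searched on both strands as TGACNNNGC and as TGAGNNNGC, together with TGCTGA, the part of the element that contacts the MAF partner. TGACNNNGC was in none of the members' windows and in 10.9% of 35116 promoters. TGAGNNNGC was in the windows of 2 of the 8 members, ALDH3A2 and ALDH6A1, and in 14.8% of all promoters. TGCTGA was in both windows of ALDH3A2 and in that of ALDH7A1, and in 14.0% of all promoters. The percentages count promoter entries while the members are counted as genes, so they are not on the same unit. ALDH3A2 has 2 start sites in the table. Its sequences are shown because both windows hold one of these letter strings and because ALDH3A2 fell after NRF2 siRNA. The first line is chr17:19647886-19648135 (plus strand), with TGCTGA in capitals. The second line is a stretch of 25 bases from the other window, chr17:19648523-19648547 (plus strand), where TGAGNNNGC and TGCTGA lie on the opposite strand and overlap, so that the capitals are both together.

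ALDH3A2, first start: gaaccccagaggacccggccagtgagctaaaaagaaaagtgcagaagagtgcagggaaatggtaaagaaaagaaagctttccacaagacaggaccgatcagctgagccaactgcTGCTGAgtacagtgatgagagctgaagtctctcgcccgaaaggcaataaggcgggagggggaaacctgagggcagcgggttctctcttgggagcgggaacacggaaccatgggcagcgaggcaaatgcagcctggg
ALDH3A2, second start: gccccgggGCGCTCTCAGCAggatg

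A match is a description of the letters in the window and not a binding site. The windows hold only the bases next to a start, so elements farther away were not searched.

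The first question was which ALDH gene each line used. ALDH1A1, a cytosolic enzyme that oxidises retinal to retinoic acid, made up most ALDH transcripts in A549 and H2023, whereas ALDH3A1, which oxidises aromatic and medium-chain aldehydes, made up most of them in H460. In bulk RNA, fewer cells with a transcript and less of it per cell cannot be told apart. Of the summed FPKM of all 19 ALDH genes, ALDH1A1 took 66.6% ± 1.2 in A549 controls, 54.5% ± 5.03 in H2023 controls and 4.30% ± 1.66 in H460 controls (SD, n = 2 each). ALDH3A1 took 23.2% ± 2.96, 17.2% ± 5.07 and 67.0% ± 5.06 in these groups (SD, n = 2 each). The 10 members together held 89.5% to 98.4% of the sum in the 6 control libraries.

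**Figure D1:**
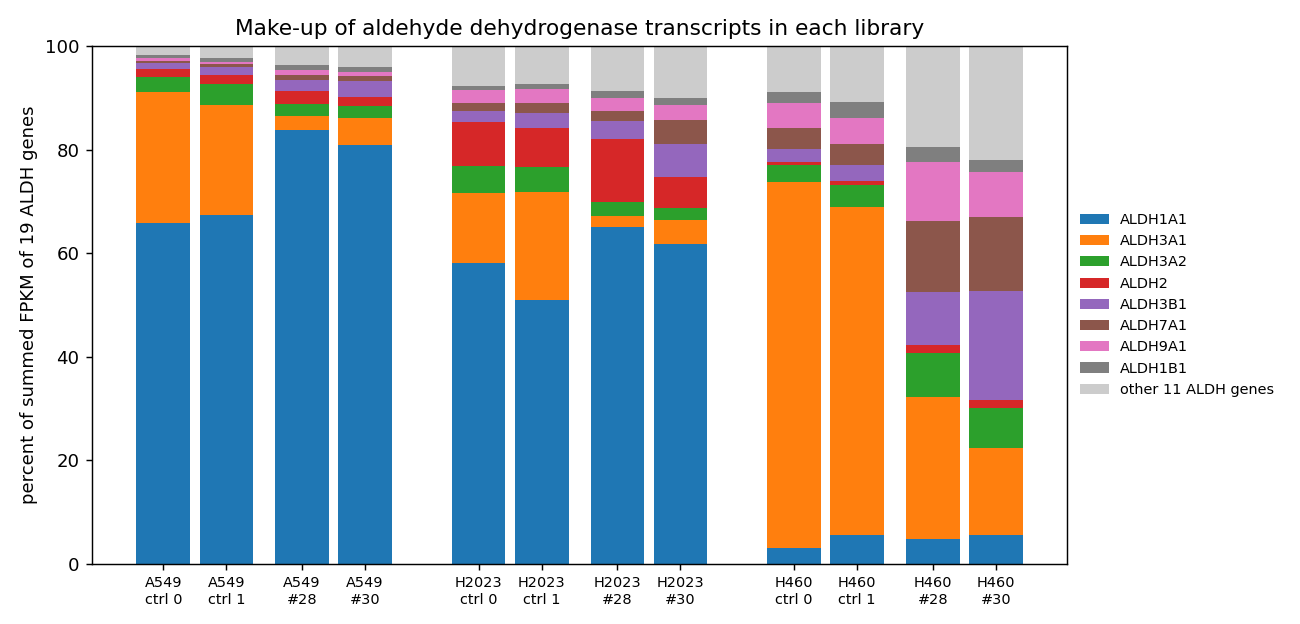
Percent of the summed FPKM of all 19 ALDH genes (y axis) taken by 8 members and by the other ALDH genes in each of the 12 libraries (x axis; ctrl is control siRNA, #28 and #30 are the NRF2 siRNAs). ALDH1A1 held 50.9% to 67.4% in the control libraries of A549 and H2023 and 3.13% to 5.47% in those of H460, where ALDH3A1 held 63.4% to 70.6%.

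In A549 controls the order of the members by mean FPKM was ALDH1A1, ALDH3A1, ALDH3A2, ALDH2, ALDH3B1, ALDH1B1, ALDH7A1, ALDH9A1, ALDH1A3 and ALDH6A1. Only ALDH1B1, ALDH7A1 and ALDH9A1, between 18.7 and 25.7 FPKM, overlapped with their neighbours in this order. In H2023 controls the order was ALDH1A1, ALDH3A1, ALDH2, ALDH3A2, ALDH9A1, ALDH3B1, ALDH7A1, ALDH1B1, ALDH1A3 and ALDH6A1, with overlap between ALDH9A1 and ALDH3B1 and between ALDH1A3 and ALDH6A1. In H460 controls ALDH3A1 was followed by ALDH9A1, ALDH1A1, ALDH7A1 and ALDH3A2, whose values ran from 38.1 to 59.7 FPKM and overlapped from each neighbour to the next. Below them came ALDH3B1 and ALDH1B1, which overlapped, then ALDH2, ALDH6A1 and ALDH1A3.

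Within the retinal-oxidising pair, ALDH1A1 was the more abundant gene in all 12 libraries, from 9.61 times ALDH1A3 in an H460 library with NRF2 siRNA '#30' to 1153 times in an H2023 library with NRF2 siRNA '#28'. Within the mitochondrial pair that handles acetaldehyde, ALDH2 was the more abundant gene in A549 and H2023 and ALDH1B1 in H460. The ratio of ALDH1B1 to ALDH2 was 0.326 and 0.392 in A549 controls, 0.104 and 0.122 in H2023 controls, and 3.45 and 4.99 in H460 controls. Among the remaining ALDH genes, ALDH16A1, ALDH18A1, ALDH1L2, ALDH4A1 and ALDH5A1 passed the filter for testing in all 3 lines, and ALDH1A2, ALDH1L1, ALDH3B2 and ALDH8A1 did not pass it in any line. ALDH18A1, which makes the proline precursor pyrroline-5-carboxylate, was second to ALDH3A1 in H460 controls with 65.4 and 68.1 FPKM.

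H2023 and H460 share the polyA protocol, and their control libraries were tested against each other to ask how the ALDH genes differ between lines without knockdown. ALDH1A1 and ALDH2 were higher in H2023, and ALDH3A1, ALDH1B1, ALDH7A1 and ALDH9A1 were lower (limma on log2(FPKM + 1), two-sided, Benjamini-Hochberg adjusted over 14039 genes, threshold 0.05). Thus 2 of 10 members were higher and 4 were lower, where 24.2% of all genes tested were called higher and 24.6% lower. With so many of all genes called, the counts alone say little about the members, and the sizes of their differences follow.

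ALDH1A1 was at 545 and 700 FPKM in H2023 controls and at 38.1 and 56.5 FPKM in H460 controls, a 13.2-fold difference of the means. Its log2 difference was 3.71 ± 0.23 (SE, adjusted p = 0.000201). ALDH2, the mitochondrial enzyme that clears acetaldehyde, was at 82.3 and 102 FPKM in H2023 and at 6.31 and 7.34 FPKM in H460, and its log2 difference was 3.57 ± 0.17 (SE, adjusted p = 9.30e-05). For both genes each H2023 library exceeded each H460 library by far, and both stayed past the threshold in all 11 alternatives.

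In the opposite direction, ALDH3A1 was at 164 and 223 FPKM in H2023 and at 655 and 861 FPKM in H460 (log2 difference -1.97 ± 0.22 SE, adjusted p = 0.00125). ALDH1B1, a mitochondrial paralog of ALDH2, was at 10.0 and 10.6 FPKM in H2023 against 25.3 and 31.5 FPKM in H460 (-1.37 ± 0.17 SE, adjusted p = 0.00184). ALDH7A1, which acts in lysine breakdown, and ALDH9A1, which oxidises an aldehyde on the way to carnitine, had log2 differences of -1.15 ± 0.15 and -0.94 ± 0.14 (SE, adjusted p = 0.00224 and 0.00325). None of these groups overlapped. The calls of ALDH1B1 and ALDH9A1 were lost without either H2023 control library, and those of ALDH3A1 and ALDH7A1 without library 0. Far fewer of all genes were called lower in these fits, so the loss is not particular to these members. With any 1 library left out the log2 difference stayed between -1.52 and -1.22 for ALDH1B1 and between -1.03 and -0.84 for ALDH9A1. It stayed between -2.19 and -1.75 for ALDH3A1 and between -1.25 and -1.04 for ALDH7A1.

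ALDH3A2, ALDH3B1, ALDH6A1 and ALDH1A3 did not pass the threshold, with log2 differences of 0.41, -0.12, 0.19 and 0.93 and adjusted p between 0.0603 and 0.484. When mitochondrially encoded transcripts were left out and the rest rescaled, the median log2 difference of all genes moved from -0.03 to 0.15 and the genes called from 3453 lower and 3404 higher to 2512 lower and 4209 higher, and ALDH3A2 then passed as higher (0.63, adjusted p = 0.0171).

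**Figure D2:**
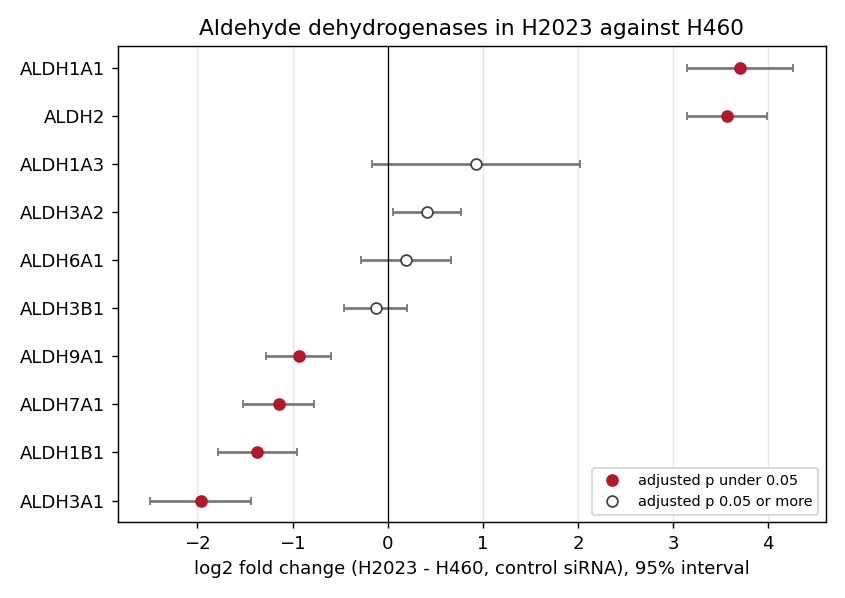
Log2 difference of FPKM + 1 between H2023 and H460 control libraries (x axis, n = 2 each) with its 95% confidence interval for the 10 members (y axis); filled points passed the threshold. ALDH1A1 (3.71) and ALDH2 (3.57) lie far to the right and ALDH3A1 (-1.97) farthest to the left.

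The next comparison asked which ALDH transcripts change when NRF2 is lowered. ALDH3A1 fell in each of the 3 lines, by 7.07-fold to 10.1-fold. ALDH3A2 fell in A549 and ALDH1B1 fell in H460, and no member rose past the threshold in any line. All 10 members passed the filter of 1 FPKM in at least 2 of the 4 libraries of each line, and p-values were adjusted over all genes tested in the line. In A549, 2 of 10 members were lower, against 0.554% of all genes, and 0 were higher, against 0.122%. H2023 had 1 member lower, against 0.583% of genes, and 0 higher, against 0.327%. In H460, 2 members were lower, against 6.86% of genes, and 0 were higher, against 7.12%. At an unadjusted p under 0.05 the limma fits had 1, 0 and 3 of 10 members higher in A549, H2023 and H460. Of all genes 1150 of 13898, 1439 of 14059 and 2290 of 13446 were higher at that p. Lower at that p were 2, 2 and 3 of 10 members, beside 694, 939 and 2248 of these genes. Medians over the 10 members were 0.02, -0.22 and -0.09 on the log2 scale, in the same order of lines, beside 0.02, 0.02 and -0.0083 over all genes tested.

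**Figure D3:**
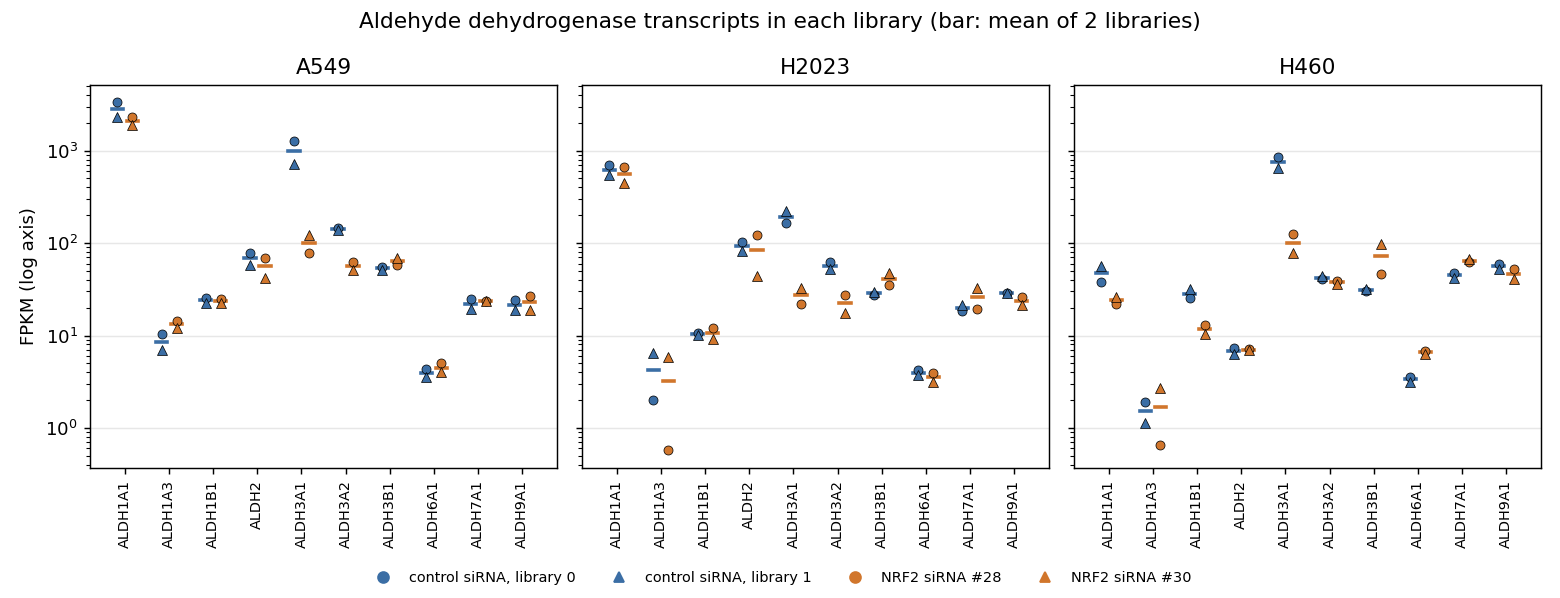
FPKM on a log axis (y) of the 10 members (x) in the 12 libraries, with circles and triangles for the libraries numbered 0 and 1 and horizontal bars for the mean of 2. For ALDH3A1 both NRF2 siRNA libraries (21.9 to 124 FPKM) lie below both control libraries (164 to 1283 FPKM) in each line, while ALDH1A1, the most abundant gene in A549 and H2023, overlaps between the groups in H2023 and lies lower after NRF2 siRNA in H460 (21.9 to 26.2 against 38.1 to 56.5 FPKM).

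ALDH3A1 lies on chromosome 17 from 19641297 to 19652256 (minus strand, GRCh37, ENSG00000108602.13). In A549 it was at 1283 and 724 FPKM in the control libraries, 77.3 FPKM with siRNA '#28' and 122 FPKM with siRNA '#30'. In H2023 the controls were at 164 and 223 FPKM, against 21.9 and 32.8 FPKM. H460 had 861 and 655 FPKM in controls, against 124 and 78.0 FPKM. Both siRNAs brought the transcript below both controls in every line, a 10.1-fold, 7.07-fold and 7.49-fold difference of the means.

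The log2 fold changes of ALDH3A1 were -3.30 ± 0.34 in A549, -2.79 ± 0.26 in H2023 and -2.92 ± 0.30 in H460 (SE, adjusted p = 0.0235, 0.0256 and 0.0120). Whether these effects differ between the lines was tested, without a call (adjusted p = 0.784). The difference was 0.51 for H2023 minus A549 (95% interval -0.59 to 1.61), 0.38 for H460 minus A549 (-0.72 to 1.48) and -0.13 for H460 minus H2023 (-1.23 to 0.97). When 1 library of a line is left out, its arm holds 1 library that is assumed to vary like the other group, which then alone gives the spread. Without A549 control library 0 the adjusted p was 0.0697 and without the A549 library with siRNA '#28' it was 0.0557. It was 0.120 and 0.148 without H2023 control library 0 and 1, and 0.167 and 0.119 without H460 control library 0 and 1. In these fits 0 of all 14059 genes passed in H2023 and 1 of 13446 in H460, so nearly every call of those lines was lost with a control library, and the loss is not particular to ALDH3A1. The log2 fold change stayed between -3.71 and -2.51 when any 1 library was left out. The antisense lncRNA ENSG00000264785 overlaps the 3' end of ALDH3A1, and it had 25.5 and 8.94 FPKM in A549 controls against 1.01 and 2.67 FPKM (log2 fold change -2.58, adjusted p = 0.149). The libraries were strand-specific, but the strand setting of the counting was not given in the sources used here, so reads of this pair may not be told apart.

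ALDH3A2, the fatty aldehyde dehydrogenase of the endoplasmic reticulum, lies near ALDH3A1 (chromosome 17, 19551449 to 19589073, plus strand, GRCh37, ENSG00000072210.14), and 52223 bases lie between the genes, a stretch that holds most of SLC47A2, which was below 1 FPKM in all 12 libraries. In A549 it was at 146 and 139 FPKM in controls, 63.0 FPKM with siRNA '#28' and 50.8 FPKM with siRNA '#30'. H2023 had 61.7 and 52.1 FPKM in controls, against 27.1 and 17.4 FPKM. In H460 the values were 40.5 and 44.3 FPKM, against 38.5 and 36.4 FPKM. The NRF2 siRNA libraries were below the controls in all 3 lines, but in H460 only by 1.13-fold, compared with 2.5-fold in A549 and 2.55-fold in H2023.

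The log2 fold change of ALDH3A2 was -1.31 ± 0.16 in A549 (SE, adjusted p = 0.0362), -1.34 ± 0.25 in H2023 (adjusted p = 0.102) and -0.17 ± 0.21 in H460 (adjusted p = 0.613). The H2023 value was as large as that of A549 and missed the threshold with a wider error. It passed in the fit of all 12 libraries (adjusted p = 0.00547), where 305 of 14059 genes were lower. It also passed without the H2023 library with siRNA '#28' (0.00539) or siRNA '#30' (0.0226), but those fits compare 1 knockdown library with a spread from the controls alone and called 585 and 478 genes lower against 82, so they lend the value no support. The A549 call was lost without A549 control library 0 (adjusted p = 0.249), without control library 1 (0.214) and without the library with siRNA '#30' (0.0602). The effect in H460 was smaller by 1.14 than in A549 and by 1.17 than in H2023 on the log2 scale, and neither difference passed (adjusted p = 0.0594 and 0.0574). The nearest genes on either side of the pair with at least 1 FPKM in all 12 libraries were SLC47A1, a transporter of organic cations, with log2 fold changes of -0.43, -0.88 and -0.76 and no call in a single line, and ULK2, an autophagy kinase, with 0.13, 0.28 and 1.10 in A549, H2023 and H460, called higher in H460 (adjusted p = 0.0377). As an average over the lines SLC47A1 was called lower (-0.69, adjusted p = 0.0108) and ULK2 higher (0.50, adjusted p = 0.00702).

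ALDH1B1 (chromosome 9, 38392699 to 38398658, plus strand, GRCh37) fell in H460 only among the per-line calls. It was at 25.3 and 31.5 FPKM in H460 controls and at 13 and 10.3 FPKM with siRNA '#28' and '#30', and its log2 fold change there was -1.22 ± 0.25 (SE, adjusted p = 0.0322). In A549 the controls were at 25.7 and 22.7 FPKM and the knockdown libraries at 25.0 and 22.2 FPKM, and in H2023 they were at 10.6 and 10.0 FPKM against 12.1 and 9.18 FPKM. The groups overlapped in both of these lines, with log2 fold changes of -0.03 and 0.03 (adjusted p = 0.946 and 0.961). The H460 call was lost without H460 control library 0 or 1 (adjusted p = 0.226 and 0.233), as were nearly all calls of the line, and with mitochondrially encoded transcripts left out (-1.07, adjusted p = 0.0581). These transcripts took 8.56% and 13.1% of the FPKM sum in H460 controls and 20.8% and 26.0% after NRF2 siRNA, and the direction of the ALDH1B1 effect was the same without them. Without them the median over all H460 genes moved from -0.0083 to 0.12 on the log2 scale and the genes called from 922 lower and 957 higher to 596 lower and 1198 higher.

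The next test asked whether the effect of NRF2 siRNA differed between lines. Over the 3 lines together 0 of 10 members passed, against 2.51% of 11571 genes, and 3 had an unadjusted p under 0.05, as did 2449 of all genes (ALDH1B1 with adjusted p = 0.0536, ALDH3A2 with 0.0714 and ALDH6A1 with 0.139). By pairs, ALDH1B1 was the only member called. Its effect was lower in H460, with a difference of -1.18 ± 0.28 from A549 (SE, adjusted p = 0.0495) and of -1.25 ± 0.28 from H2023 (adjusted p = 0.0414) on the log2 scale. Each call was made in 6 of 20 alternatives. Of all genes, 1.71% had a lower and 1.42% a higher effect in H460 than in A549, and 2.02% and 1.3% than in H2023. For H2023 minus A549, 0 members differed, with 0% of genes lower and 0.00864% higher. Among the fits that left out 1 library, the call for H460 minus A549 was kept only without the H2023 libraries with siRNA '#28' or '#30' or the H460 library with siRNA '#28', and reached an adjusted p of 0.186 without A549 control library 1. That for H460 minus H2023 was kept only without the H460 library with siRNA '#28', and reached 0.134 without H2023 control library 0.

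ALDH1A1 (chromosome 9, 75515587 to 75695358, minus strand, GRCh37), the gene behind most ALDH transcript in A549 and H2023, passed in no line. In A549 it was at 3332 and 2308 FPKM in controls and at 2287 and 1886 FPKM with siRNA '#28' and '#30'. H2023 had 700 and 545 FPKM against 660 and 450 FPKM, and H460 had 38.1 and 56.5 FPKM against 21.9 and 26.2 FPKM. The groups overlapped in H2023 and not in the other lines, although in A549 the lower control (2308 FPKM) and the higher knockdown library (2287 FPKM) nearly met. Log2 fold changes were -0.42 ± 0.24, -0.18 ± 0.25 and -0.92 ± 0.27 in A549, H2023 and H460 (SE, adjusted p = 0.534, 0.769 and 0.0672). The 95% intervals ran from -1.03 to 0.19, from -0.81 to 0.45 and from -1.57 to -0.28. In the fit of all 12 libraries the H460 value passed (adjusted p = 0.0249), as did 2256 of 13446 genes on the lower side. The share of ALDH1A1 in the summed ALDH FPKM was 82.3% ± 1.96 in A549 and 63.4% ± 2.33 in H2023 after NRF2 siRNA, compared with 66.6% and 54.5% in controls, and the share of ALDH3A1 was 4.03% ± 1.69 and 3.34% ± 1.66 (SD, n = 2 each). In H460 the shares were 22.1% ± 7.56 for ALDH3A1, 15.6% ± 7.63 for ALDH3B1 and 14.0% ± 0.507 for ALDH7A1 (SD, n = 2 each). ALDH3A1 had the largest share with siRNA '#28' (27.4%, against 10.2% for ALDH3B1), and ALDH3B1 with siRNA '#30' (21.0%, against 16.7% for ALDH3A1). The summed FPKM of all 19 genes was 1032 to 1219 in H460 controls and 454 to 466 after NRF2 siRNA.

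ALDH3B1 (chromosome 11, 67776048 to 67796749, plus strand, GRCh37), which oxidises lipid-derived aldehydes at membranes, had higher values after NRF2 siRNA in all 3 lines without passing in any. It was at 55.7 and 51.6 FPKM in A549 controls against 57.8 and 69.5 FPKM, at 27.5 and 29.8 FPKM in H2023 controls against 35.0 and 47.1 FPKM, and at 30.6 and 32.0 FPKM in H460 controls against 46.2 and 97.8 FPKM with siRNA '#28' and '#30'. No groups overlapped, and the library with siRNA '#30' was the highest in each line. Log2 fold changes were 0.24, 0.49 and 1.08, with adjusted p of 0.562, 0.307 and 0.0919. In the fit of all 12 libraries the H460 value passed (adjusted p = 0.0170), as did 2329 of 13446 genes on the higher side. With siRNA '#30' as the only knockdown library it was 1.61 (adjusted p = 0.0156), a test whose spread came from the controls alone and which called 1332 genes higher against 957.

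ALDH6A1, the methylmalonate semialdehyde dehydrogenase of valine breakdown, was the least abundant member beside ALDH1A3. In H460 it was at 3.58 and 3.11 FPKM in controls and at 6.82 and 6.30 FPKM after NRF2 siRNA, without overlap (log2 fold change 0.80 ± 0.26 SE, adjusted p = 0.0872), and it passed there in the fit of all 12 libraries (0.0107). In A549 and H2023 its groups overlapped, within 3.14 to 4.99 FPKM. ALDH7A1 was at 47.5 and 42.4 FPKM in H460 controls against 62.1 and 67.2 FPKM (log2 fold change 0.52 ± 0.21 SE, adjusted p = 0.142), and its groups overlapped in the other lines.

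ALDH2 did not separate the groups in any line. It was at 79.0 and 57.7 FPKM in A549 controls against 69.4 and 42.3 FPKM, at 102 and 82.3 FPKM in H2023 controls against 124 and 43.5 FPKM, and at 7.34 and 6.31 FPKM in H460 controls against 7.09 and 6.97 FPKM. The knockdown libraries of H2023 lay on either side of the controls, and the log2 fold changes of -0.31, -0.32 and 0.04 had adjusted p of 0.684 to 0.930. Without the H2023 library with siRNA '#28' its log2 fold change there was -1.06 (adjusted p = 0.0244), which rests on 1 knockdown library and a spread from the controls alone, in a fit that called 585 genes lower and 488 higher.

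ALDH1A3 was low and variable. It was at 10.3 and 6.95 FPKM in A549 controls against 14.3 and 12.1 FPKM (log2 fold change 0.58 ± 0.21 SE, adjusted p = 0.343), at 1.99 and 6.54 FPKM in H2023 controls against 0.573 and 5.84 FPKM, and at 1.92 and 1.13 FPKM in H460 controls against 0.648 and 2.73 FPKM. The libraries numbered 0 were the lower ones in both H2023 groups, and the 95% interval of the log2 fold change there ran from -2.52 to 1.45. ALDH9A1 lay between 18.7 and 26.9 FPKM in A549, 21.6 and 28.8 FPKM in H2023 and 40.4 and 59.7 FPKM in H460, with log2 fold changes of 0.07, -0.26 and -0.28 (adjusted p = 0.92, 0.507 and 0.444). Its groups overlapped in A549, and both NRF2 siRNA libraries lay below both controls in H2023 (26.0 and 21.6 against 28.6 and 28.8 FPKM) and in H460 (52.0 and 40.4 against 59.7 and 52.1 FPKM).

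**Figure D4:**
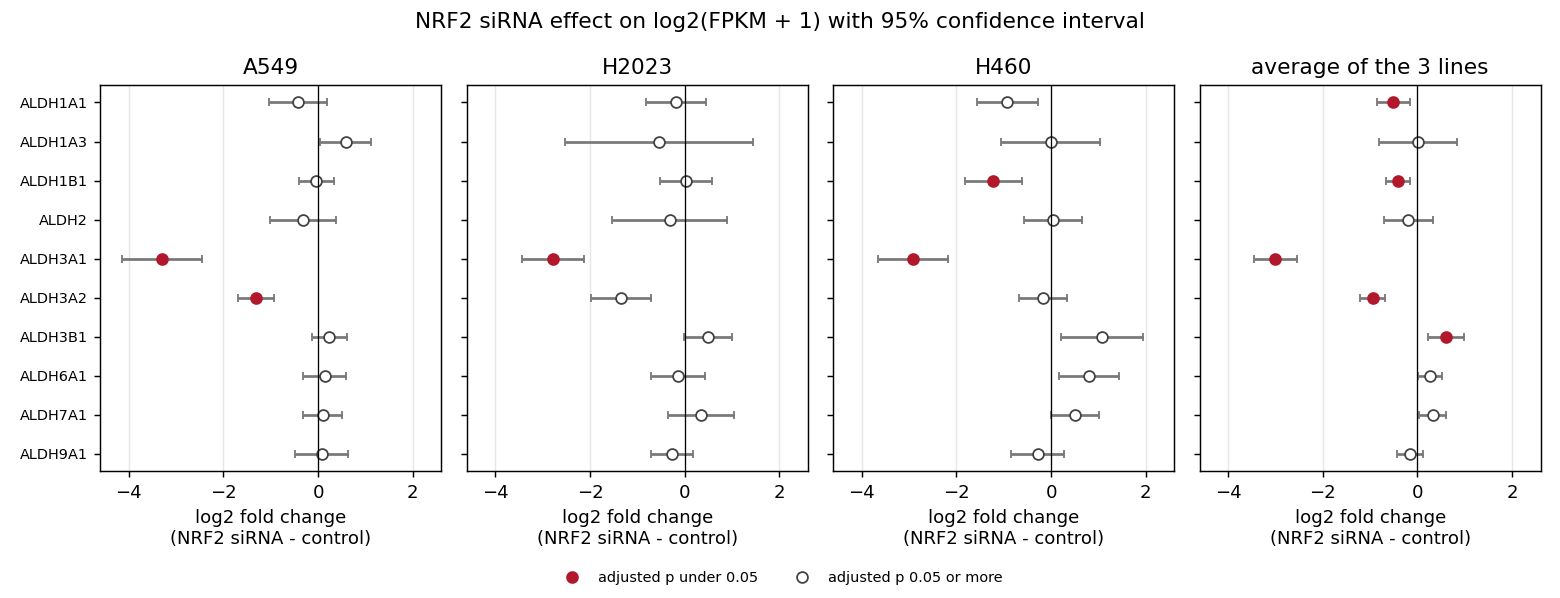
Log2 fold change of FPKM + 1 after NRF2 siRNA (x axis) with its 95% confidence interval for the 10 members (y axis) in each line and as the average of the 3 lines; filled points passed the threshold. ALDH3A1 lies between -3.30 and -2.79 in every line, ALDH3A2 near -1.3 in A549 and H2023 and at -0.17 in H460, and ALDH1B1 at -1.22 in H460 and near 0 elsewhere.

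The effects of the 3 lines were then averaged in 1 fit of all 12 libraries and 11571 genes. An earlier report of these data found this test optimistic on simulated data. Lower on average were 4 of 10 members, against 14.5% of all genes, and higher was 1, against 15.2%. The average for ALDH3A1 was -3.00 ± 0.20 on the log2 scale (SE, adjusted p = 1.05e-05) and for ALDH3A2 -0.94 ± 0.12 (adjusted p = 0.000534), and both passed in all 20 alternatives. ALDH1A1 had an average of -0.51 ± 0.16 (adjusted p = 0.0336) and ALDH1B1 of -0.41 ± 0.11 (adjusted p = 0.0218), the latter with its fall in H460. ALDH3B1 was higher by 0.60 ± 0.17 (adjusted p = 0.0223). ALDH6A1 and ALDH7A1 had averages of 0.27 and 0.32 and did not pass (adjusted p = 0.0955 and 0.091). Among the other 5 genes tested, ALDH16A1, a member of the family without a known catalytic role in humans, had an average of -0.37 ± 0.12 (SE, adjusted p = 0.0381), and 0 of the 5 passed in any single line, with 1 at an unadjusted p under 0.05 (lower in H2023).

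Single libraries ended 3 of these calls. That of ALDH1A1 was lost without A549 control library 0, H2023 control library 0, H460 control library 1, the A549 or H2023 library with siRNA '#30' or the H460 library with siRNA '#28' (adjusted p of 0.0553 to 0.0979). That of ALDH1B1 was lost without A549 control library 0, the A549 library with siRNA '#30', H2023 control library 0 or H460 control library 1 (0.0567 to 0.0684). The ALDH3B1 call was lost without A549 control library 1, the A549 library with siRNA '#30', H2023 control library 0 or H460 control library 0 (0.0540 to 0.0611).

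The siRNA molecules, which share 1 target, were set against each other over the 6 knockdown libraries, with the line as a covariate. Of the 9 members tested, 0 differed, against 1.25% of 10981 genes, and 3 had an unadjusted p under 0.05, as did 2520 of all genes. ALDH2 was higher with siRNA '#28' than with siRNA '#30' by 0.74 on the log2 scale (95% interval 0.11 to 1.36, adjusted p = 0.161), and by direction in 3 of 3 lines. The control libraries that carry the same number as siRNA '#28' were also the higher ones for ALDH2 in all 3 lines. ALDH9A1 differed by 0.37 (0.05 to 0.69, adjusted p = 0.171) and ALDH3B1 by -0.58 (-1.02 to -0.15, adjusted p = 0.130). For ALDH3A1 the difference was -0.18 (-0.80 to 0.44). Both siRNAs are set against the same controls, and against their mean ALDH3A1 was at -3.62, -3.07 and -2.58 with siRNA '#28' and at -2.98, -2.51 and -3.25 with siRNA '#30' in A549, H2023 and H460 on the log2 scale. ALDH1A3 was left out by the filter on low values.

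The patterns most like those of the called members were looked up over the 12 libraries, after log2(FPKM + 1) was centred within each line, among 11571 genes. As a description, the genes nearest to ALDH3A1 were ENSG00000231683 (Pearson r = 0.979), HMOX1 (0.977), which breaks down heme, and TRIM16L (0.974). Among those nearest to ALDH3A2 were ABCG2 (0.972), a drug efflux transporter, and EPHX1 (0.964), the microsomal epoxide hydrolase. For ALDH1B1 they were PNP (0.979), a purine salvage enzyme, DOHH (0.977), which acts in hypusine synthesis, and CMTM7 (0.974). These libraries share the contrast of control and NRF2 siRNA, so each r holds that contrast.

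Genes around the ALDH reactions were followed as lists. Of the 28 canonical NRF2 targets, 21 of 27 tested were lower in A549, 17 of 28 in H2023 and 23 of 27 in H460, against 0.554%, 0.583% and 6.86% of all genes, with 0 higher and medians of -2.28, -2.17 and -1.95. Without A549 control library 0 or 1, 6 and 8 of them passed there, and without either control library of H2023 or of H460 0 passed in that line, where 0 or 1 of all genes did. The log2 fold changes of ALDH3A1 lay below these medians in all 3 lines and those of ALDH3A2 above them. Of 25 other aldehyde-handling enzymes (alcohol dehydrogenases, aldo-keto and carbonyl reductases and others), 5 of 20, 6 of 20 and 6 of 17 tested were lower, beside the same shares of 0.554%, 0.583% and 6.86% over all genes, and 0 higher, with medians of -0.62, -0.26 and -0.69, and here too 0 were lower without either control library in H2023 and in H460. The aldo-keto reductase AKR1B10, which reduces retinal and other aldehydes to alcohols, had log2 fold changes of -3.59, -4.66 and -5.98 (adjusted p = 0.00561, 0.0556 and 0.00271), and AKR1C1 and AKR1C2 were lower in all 3 lines (-3.74 to -2.67). AKR1B10 and AKR1B15, and AKR1C1 and AKR1C2, are similar in sequence, so their values are uncertain.

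On the retinoid side, which holds the carriers, receptors and other enzymes around ALDH1A1 and ALDH1A3, 0 genes passed in any line, of 17, 18 and 15 tested from a list of 22, with medians of 0.06, 0.03 and 0.05. In the fit of all 12 libraries 1 was lower in H2023, where 305 of 14059 genes were. In H460 1 was lower and 2 higher, near the background of 2256 and 2329 of 13446 genes. At an unadjusted p under 0.05 in a single line 1, 2 and 1 were lower and 2, 1 and 3 higher in A549, H2023 and H460. Of all genes tested 694, 939 and 2248 were lower at that p and 1150, 1439 and 2290 higher, of 13898, 14059 and 13446. Its largest value was that of CRABP1, a retinoic acid binding protein, in H460 (2.03, adjusted p = 0.124), where CYP26B1, which degrades retinoic acid, was at 1.95 (adjusted p = 0.0542). In H460 controls CRABP1 was at 0.314 and 0.261 FPKM and CYP26B1 at 0.274 and 0.166 FPKM. Both genes thus passed the filter of 1 FPKM there only through the NRF2 siRNA libraries, so a rise was favoured by the filter itself. Of 20 enzymes of branched-chain, lysine, polyamine and choline breakdown, 0 passed in A549 and H2023. In H460 2 were lower and 1 higher of 17, where 6.86% and 7.12% of all genes were, so these counts are near the background. SAT1, a polyamine acetyltransferase, rose there by 2.49 (adjusted p = 0.0215) and BCAT1, the cytosolic branched-chain aminotransferase, fell by 2.11 (adjusted p = 0.0178). These calls in H460 were lost without either H460 control library.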

How the data were processed

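RNA-seq was done on 12 libraries of 3 lines, 2 in each of 6 groups taken from the labels. The deposited FPKM values were made by the authors from paired-end Illumina reads. The study's methods name TopHat and Cufflinks with hg19, while the submitters' processing notes name bcl2fastq 2.15.0, cutadapt 1.15, STAR 2.5.3a, SAMtools, Cuffnorm, HTSeq, DESeq2 and R 3.2.0, so the aligner and quantifier behind the values are not settled. Libraries were strand-specific, with rRNA removal for A549 and polyA selection for the others. Of 57815 genes per file, 96.1% were matched to a symbol, and 12710 values below 1e-06 were set to 0. No 2 libraries were identical. Numbers of reads were not used here, so no counting intervals are given. The 3 tables of the authors' own comparisons hold fold changes and p-values and were not used.

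Values were tested as log2(FPKM + 1) with limma 3.58.1 in R 4.3.3 (eBayes with a trend, two-sided, Benjamini-Hochberg adjustment over all genes tested, threshold 0.05). Fold changes on this scale understate those of low genes. A line was fitted alone (4 libraries, 2 residual degrees of freedom before moderation) over genes with at least 1 FPKM in at least 2 libraries. The average effect and the differences between lines came from 1 fit of the 6 group means over genes that passed this filter in every line. Intervals are 95% intervals of the fit. Shares, lists and promoters were handled in Python 3.11.15 with pandas 2.3.3 and numpy 2.4.6, and figures were drawn in matplotlib 3.10.9. The tests were run on simulated data with a check on the sign of calls, which does not limit false calls. In an earlier report of these data the test of the average effect was optimistic on simulated data.

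Alternatives were a pseudocount of 0.1, a minimum of 5 FPKM, no filter, a filter over any 2 libraries, no trend, median-of-ratios scaling, mitochondrially encoded transcripts left out, 1 fit of all 12 libraries, a replicate block, and each library left out. Members and gene lists were chosen with earlier results of these data known. All 10 members were named, beside at most 4 genes of each list with the largest mean absolute change, the genes next to ALDH3A1 and ALDH3A2, and for each member called in a line the 3 genes with the highest correlation, of which 1 is not reported here. Control libraries were biological duplicates per the methods, and the p-values measure the spread between 2 libraries a group.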

Additional observations from a re-analysis of the deposited data

Results flagged for a closer look

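The effect of NRF2 siRNA on ALDH1B1 differed in 2 pairs of lines, but the test over the 3 lines together did not pass (adjusted p = 0.0536). It was lower in H460, with a difference of -1.18 from A549 and of -1.25 from H2023 on the log2 scale (limma, adjusted p = 0.0495 and 0.0414), with 2 of 2 NRF2 siRNA libraries below both controls in H460 and overlapping groups in the other lines. Over the alternatives the adjusted p ran from 0.0277 to 0.186 for H460 minus A549 and from 0.0207 to 0.134 for H460 minus H2023, with calls in 6 of 20 of each and none with a replicate block (0.0651 and 0.0557), and the direction was the same in all 20 of each. The share of mitochondrially encoded transcripts was 8.56% and 13.1% in H460 controls and 20.8% and 26.0% after NRF2 siRNA, and without these transcripts the differences were -0.94 and -1.20 (adjusted p = 0.130 and 0.0826).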

How the results depend on the processing

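Each group had 2 libraries, so a single library could end a call, and depth behind the FPKM values was not used. With no filter on low values 0 members were lower in A549, H2023 and H460, 0 were higher on average, and no gene of any kind passed in a single line. In the fit of all 12 libraries 2 members were lower in H2023, where 305 of 14059 genes were, and 3 were lower and 2 higher in H460, where 2256 and 2329 of 13446 genes were, near the background. Without a trend 1 was lower in A549, where 74 of 13898 genes were. Without mitochondrially encoded transcripts 1 was lower in H460, where 596 of 13433 genes were. For the difference between lines 1 member was called at a minimum of 5 FPKM and 1 under median-of-ratios scaling, beside 338 of 8080 and 336 of 11571 genes. When 1 library was left out, a group held a single library, and the counts of calls moved widely for members and for all genes alike. These counts are therefore not read as results about the members.

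Same-numbered libraries correlated by -0.03 in A549, 0.31 in H2023 and 0.16 in H460. The labels do not say that the number marks a shared batch, and it coincides with the siRNA. With a replicate block 2 members were lower in A549, 2 in H2023 (ALDH3A2 gained, adjusted p = 0.0156) and 3 in H460 (ALDH1A1 gained, 0.0251), and 1 was higher in H460 (ALDH3B1, 0.0195). Of all genes 65 of 13898 were lower in A549 and 298 of 14059 in H2023. In H460 1530 were lower and 1647 higher of 13446 genes, so the higher count there is near the background. With this replicate block the average kept its counts (4 lower, 1 higher), where 1760 and 1858 of 11571 genes were. The difference between lines kept 0 members, where 76 of 11571 genes were called. ALDH1B1 then lost its calls for H460 minus A549 and H460 minus H2023 (adjusted p = 0.0651 and 0.0557) and ALDH3A2 gained that for H460 minus H2023 (0.0483).

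With the 10 members alone as the total, ALDH1A1 held 67.9% in A549 controls, 85% and 69.4% after NRF2 siRNA in A549 and H2023, and 6.47% after NRF2 siRNA in H460, and ALDH3A1 held 74.0% in H460 controls.

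Signs turned only for log2 values that had not passed in the fits reported. Without mitochondrially encoded transcripts these were -0.029 for ALDH9A1 and -0.0034 for ALDH7A1 in A549, 0.069 for ALDH1A3 in H460 and 0.085 for ALDH3B1 in H2023 against H460. Under median-of-ratios scaling they were -0.032 for ALDH1B1 in H2023, -0.036 for ALDH2 in H460 and -0.012 for ALDH1A3 on average, which was -0.13 with a pseudocount of 0.1. With 1 library left out the ranges in A549 were -0.12 to 0.054 for ALDH1B1, -0.17 to 0.32 for ALDH9A1, -0.071 to 0.27 for ALDH7A1 and -0.66 to 0.039 for ALDH2. In H2023 they were -0.15 to 0.21 for ALDH1B1, -1.59 to 0.53 for ALDH1A3, -1.06 to 0.43 for ALDH2, -0.011 to 0.70 for ALDH7A1 and -0.46 to 0.10 for ALDH1A1. In H460 they were -0.60 to 0.58 for ALDH1A3 and -0.054 to 0.14 for ALDH2, on average -0.34 to 0.37 for ALDH1A3 and -0.44 to 0.052 for ALDH2, and between the siRNAs -0.60 to 0.052 for ALDH3A1. The causes of these changes were not tested.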
